A study of Homo sapiens with 4 samples.

Results

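The miR-181 family was followed through 4 small RNA libraries from RD cells, a long-established human cell line from an embryonal rhabdomyosarcoma, which is a cancer of muscle-like cells. Its 7 members are the rows of the deposited count table for the mature miRNAs hsa-miR-181a-5p, hsa-miR-181b-5p, hsa-miR-181c-5p, hsa-miR-181d-5p, hsa-miR-181a-3p, hsa-miR-181a-2-3p and hsa-miR-181c-3p, chosen by name and written below without the species prefix, of 2656 mature miRNAs listed in all. The EVEN and ODD libraries come from native pull-downs of untreated cell lysate with 2 separate sets of biotinylated antisense probes against exon 2 of HIPK3, the exon that forms the circular RNA circHIPK3. The LacZ library comes from a pull-down with probes against a bacterial mRNA that these cells do not make, and the input library from lysate. Each is 1 library from 1 biological replicate, so no difference has a replicate check, and all intervals cover counting error only and describe these libraries.

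A miRNA is a short RNA that an Argonaute protein carries to messenger RNAs, which it recognises mainly through its seed, bases 2 to 8 counted from the 5′ end. A hairpin precursor is cut into a 5p and a 3p strand, and usually one of them, the guide, is kept while its partner is degraded. For miR-181 the 5p strands are the usual guides. The family is known for tuning lymphocyte development and receptor signalling, and in mouse myoblasts miR-181 rises during differentiation and represses the homeobox protein Hox-A11. A circular RNA that binds a miRNA would carry it into the pull-down, which is the question the EVEN and ODD libraries address against LacZ.

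The mature sequences, from RefSeq (GRCh38.p14), show how alike the 5p strands are. All 7 members matched the RefSeq table, and capitals mark the seed, bases 2 to 8.
miR-181a-5p: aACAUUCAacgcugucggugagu
miR-181b-5p: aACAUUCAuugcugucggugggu
miR-181c-5p: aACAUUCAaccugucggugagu
miR-181d-5p: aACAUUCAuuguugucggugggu
miR-181a-2-3p: aCCACUGAccguugacuguacc
miR-181a-3p: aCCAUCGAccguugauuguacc
miR-181c-3p: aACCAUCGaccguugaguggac
The 4 5p strands share 1 seed and can be told apart only by bases after it. Positions are counted from 1 at the 5′ end of the first-named miRNA. From miR-181a-5p to miR-181b-5p the changes are A9U, C10U and A21G, and miR-181d-5p differs from miR-181b-5p by C12U alone. miR-181c-5p, 22 nt long against 23 nt for the others, is miR-181a-5p with position 11 removed. By bases 9 and 10 the 5p strands therefore form 2 pairs, miR-181a-5p with miR-181c-5p and miR-181b-5p with miR-181d-5p. The 3 members from 3p strands each have a seed of their own. The sources used here do not say how reads that match several of these sequences were assigned, so counts of such near-identical miRNAs carry that uncertainty.

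The 5p strands come from 6 hairpins at 3 loci, each a pair of neighbours. MIR181A1 (198859044 to 198859153) and MIR181B1 (198858873 to 198858982) lie on the minus strand of chromosome 1 in an intron of the long noncoding RNA gene MIR181A1HG. MIR181A2 (124692442 to 124692551) and MIR181B2 (124693710 to 124693798) lie on the plus strand of chromosome 9 in an intron of MIR181A2HG, opposite an intron of NR6A1. MIR181C (13874699 to 13874808) and MIR181D (13874875 to 13875011) lie on the plus strand of chromosome 19 in an intron of NANOS3. These hairpin positions are from GENCODE release 29 on GRCh38. miR-181a-5p and miR-181b-5p can each come from 2 hairpins, so their reads cannot be split by locus, whereas miR-181a-3p comes from MIR181A1 and miR-181a-2-3p from MIR181A2 only.

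The libraries held 98950 (EVEN), 426450 (ODD), 425395 (LacZ) and 2987858 (input) miRNA reads. CPM is the share of a library's miRNA reads on a common scale. With 3 reads as the floor, 0 reads leave room for up to 30.3 CPM in EVEN, 7.03 in ODD, 7.05 in LacZ and 1.00 in the input. The 4 skeletal muscle miRNAs miR-1-3p, miR-133a-3p, miR-133b and miR-206 all had reads in every library and together took 3.50% to 10.4% of reads. Lists for blood cells, liver and epithelium took at most 0.0212%, 0.00141% and 0.0193% of any library.

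In the input lysate the family had 4259 reads over its 7 members, or 0.143% of the library. Its most abundant member ranked 129 among the 1146 miRNAs with an input read. miR-181a-5p led with 476 CPM (95% exact binomial interval 452 to 501). Next came the 3p strand miR-181a-2-3p, with 407 CPM (384 to 431), and then miR-181b-5p, with 351 CPM (330 to 373). These 3 intervals do not overlap, so the order holds against counting error. miR-181c-5p (65.9 CPM), miR-181c-3p (63.3 CPM) and miR-181d-5p (60.9 CPM) followed at a level that cannot be ordered, since their intervals overlap. miR-181a-3p had 5 reads in the input, 2 in LacZ and 0 in both EVEN and ODD, and is left without a fold because it lay at or under the floor in every pull-down.

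The 3p reads were far from even between loci. In the input miR-181a-2-3p, of the chromosome 9 hairpin, had 1216 reads and miR-181a-3p, of the chromosome 1 hairpin, had 5, a ratio of 243 (counting interval 104 to 750). Among the 3 family rows that are not members, miR-181b-2-3p, of chromosome 9, had 159 input reads and miR-181b-3p, of chromosome 1, had 1. The third, miR-181d-3p of chromosome 19, had 8. Output of a locus and survival of its 3p strand cannot be told apart from these counts. miR-181b-2-3p had 2 reads in each of EVEN, ODD and LacZ.

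**Figure D1:**
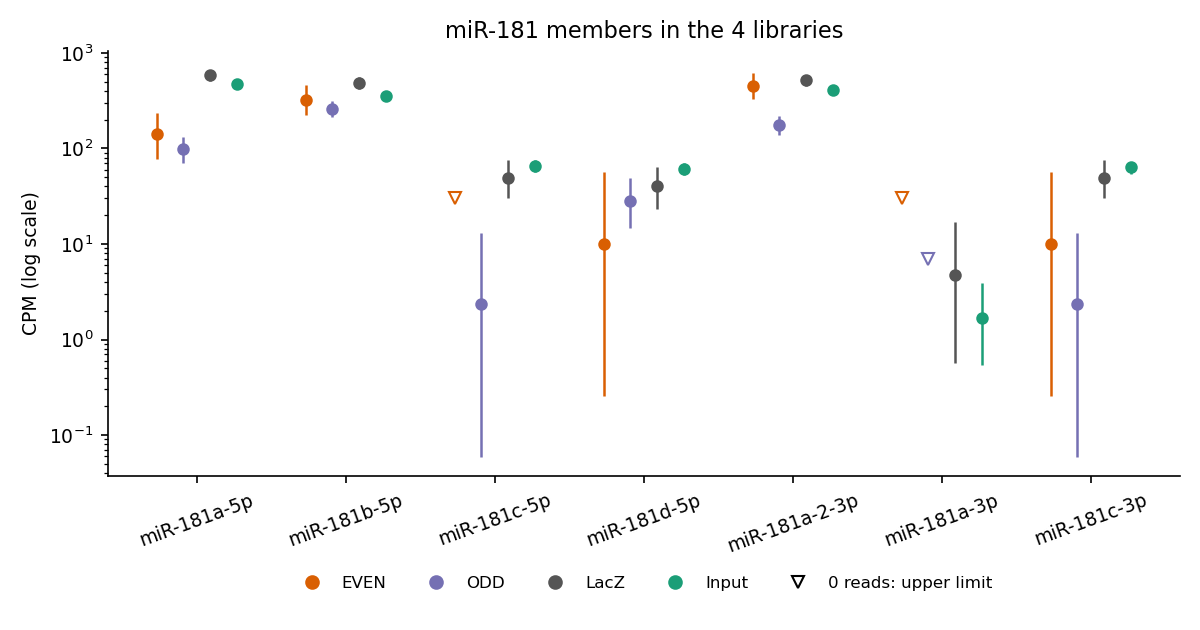
CPM of each miR-181 member on a log axis in the EVEN, ODD, LacZ and input libraries; points are single libraries, bars are 95% exact binomial intervals and open triangles mark the upper limit that 0 reads allow. miR-181a-5p lies at 141 and 98.5 CPM in EVEN and ODD, below its 583 CPM in LacZ and 476 CPM in the input, while miR-181b-5p spans a narrower range, 260.3 to 482 CPM.

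The LacZ library, set against the input, tells how the family behaves on beads with probes that have no target. By library totals the summed share of the 5p strands changed little in the control pull-down, whereas the share of a typical tested miRNA fell. miR-181b-2-3p, a family row that is not a member, fell from 53.2 CPM in the input to 4.70 CPM in LacZ, from 2 LacZ reads. The 5p strands summed to 1154 CPM in LacZ and 954 CPM in the input, a 1.21-fold higher share in LacZ (95% exact conditional interval 1.10 to 1.33). The direction of this small difference depends on the scaling: the log2 ratio was 0.28 by library totals, -0.33 under TMM and -0.00 under median-of-ratios scaling. miR-181a-5p had 583 CPM in LacZ and 476 CPM in the input, and miR-181b-5p had 482 CPM in LacZ and 351 CPM in the input. Here and below, a tested miRNA is one with 20 reads or more in either library of a comparison, and a called one differed at least 2-fold in its share, with 0.5 added to each count. Of 6 members tested here, none was called in either direction, where 18.1% of all 475 tested miRNAs were called higher and 34.3% lower in LacZ. With TMM factors 1 member, miR-181d-5p, passed as lower. By library totals the 475 miRNAs had a median of -0.44 on the log2 scale. The summed 5p strands lay 0.72 above this median, and 1 of the 6 members lay below it.

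By library totals, the EVEN probes recovered a larger share of no tested miR-181 member than the LacZ probes did. The 5p strands summed to 475 CPM in EVEN and 1154 CPM in LacZ, a 2.43-fold lower share in EVEN (1.80 to 3.35). Most miRNAs were lower in EVEN by library totals, with a median log2 ratio of -1.06 over 289 tested miRNAs, and the log2 ratio of the summed 5p strands, -1.27, lay close to it. Of 5 members tested 0 were higher and 3 were lower, where 9.69% of all tested miRNAs were called higher and 51.2% lower.

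The members differed among themselves in this comparison. miR-181a-5p had 14 reads (141 CPM) in EVEN and 248 reads (583 CPM) in LacZ, a 4.12-fold lower share in EVEN (2.41 to 7.65). miR-181b-5p, with the same seed, had 32 reads (323 CPM) in EVEN and 205 reads (482 CPM) in LacZ, 1.49-fold lower (1.02 to 2.24) and not called. The 3p strand miR-181a-2-3p had 45 reads (455 CPM) in EVEN and 221 reads (519.5 CPM) in LacZ, a log2 ratio of -0.18 that became 0.09 under TMM and 0.23 under median-of-ratios scaling. Thus miR-181a-5p lay 0.93 below the median of all tested miRNAs on the log2 scale, and miR-181b-5p and miR-181a-2-3p lay 0.50 and 0.88 above it.

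The chromosome 19 members were near the limit of the EVEN library. miR-181c-5p had 0 reads in EVEN and 21 in LacZ, which makes it at least 1.63-fold lower with EVEN at the floor of 3 reads, while its exact interval begins at 1.21-fold. miR-181c-3p had 1 read in EVEN and 21 in LacZ, 4.89-fold lower with an interval that includes no difference (0.786 to 202). All 3 members called in EVEN, miR-181a-5p with its 14 EVEN reads included, passed the minimum only through their LacZ reads, so that count supports nothing by itself. miR-181d-5p, described in human glioblastoma as a repressor of the DNA repair gene MGMT, had 1 read in EVEN and 17 in LacZ and was not tested.

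The ODD probes likewise gave no tested member a larger share than LacZ by library totals. The 5p strands summed to 389 CPM in ODD and 1154 CPM in LacZ, a 2.97-fold lower share in ODD (2.48 to 3.56). The median log2 ratio over 300 tested miRNAs was -1.79, and that of the summed 5p strands was -1.57. Of 5 members tested 0 were higher and 4 were lower, where 13.0% of all tested miRNAs were called higher and 70.3% lower. This shift depends on the scaling: TMM factors raise the median of all tested miRNAs by 1.29 and put the summed 5p strands at -0.28.

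miR-181a-5p was again low, with 42 reads (98.5 CPM) in ODD and 248 reads (583 CPM) in LacZ, 5.92-fold lower (4.25 to 8.42). It stayed past 2-fold under TMM scaling (log2 ratio -1.26), under median-of-ratios scaling (-1.10) and when totals excluded the 10 most abundant miRNAs (-1.89). miR-181b-5p had 111 reads (260.3 CPM) in ODD and 205 reads (482 CPM) in LacZ, 1.85-fold lower (1.46 to 2.35) by library totals, but its log2 ratio of -0.89 turned to 0.40 under TMM and 0.56 under median-of-ratios scaling. Relative to the median of all tested miRNAs, miR-181a-5p was 0.76 lower and miR-181b-5p 0.91 higher on the log2 scale.

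The other members had fewer reads or were 3p strands. miR-181c-5p, which is known in rat heart for acting inside mitochondria, had 1 read in ODD and 21 in LacZ, 21.1-fold lower (3.39 to 871). miR-181d-5p had 12 reads (28.1 CPM) in ODD and 17 reads (39.96 CPM) in LacZ, a 1.42-fold lower share with an interval that includes no difference (0.639 to 3.26), and with fewer than 20 reads in both libraries it was not tested. miR-181c-3p, like its 5p partner, had 1 read in ODD and 21 in LacZ, and both passed the minimum only through LacZ. miR-181a-2-3p had 75 reads (176 CPM) in ODD and 221 reads (519.5 CPM) in LacZ, 2.95-fold lower (2.26 to 3.89), which is 0.24 above the median of all tested miRNAs on the log2 scale, and its call was lost under TMM scaling (log2 ratio -0.27), under median-of-ratios scaling (-0.11) and without the 10 most abundant miRNAs (-0.89).

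**Figure D2:**
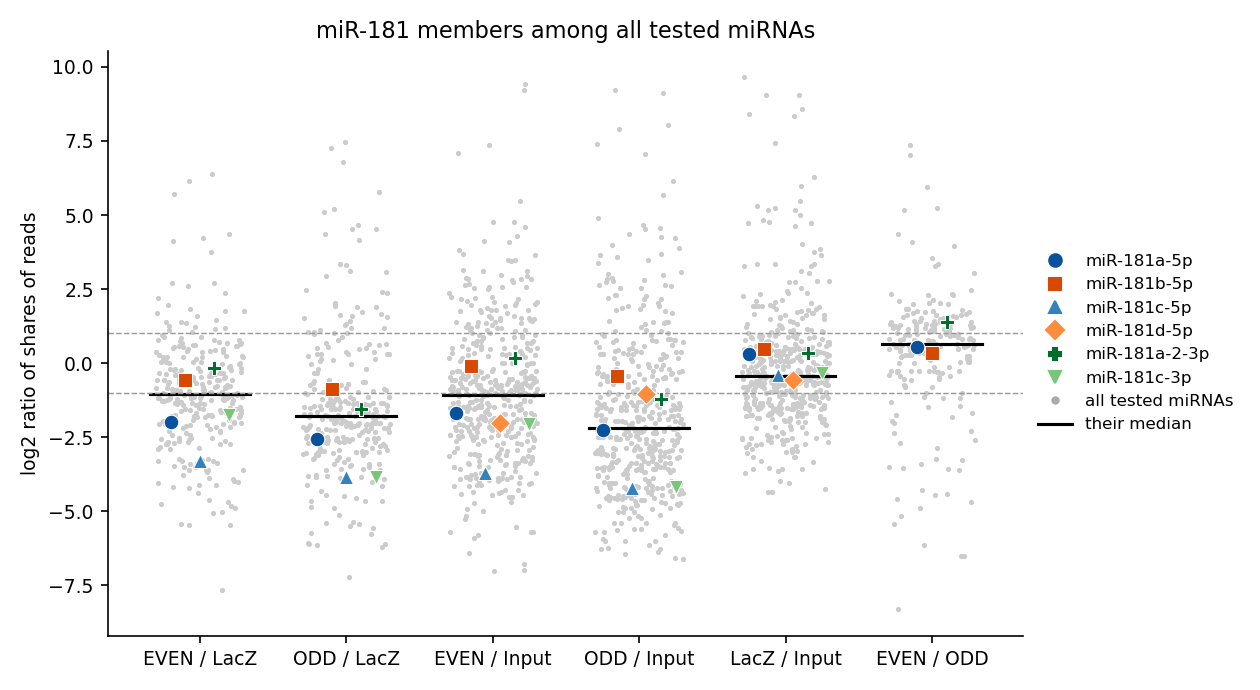
log2 ratio of the shares of reads for each comparison, named on the x axis as the first library over the second. Grey points are all tested miRNAs, black bars their medians, dashed lines the 2-fold limits and coloured symbols the tested miR-181 members; miR-181a-5p lies below and miR-181b-5p above the median in EVEN over LacZ and in ODD over LacZ.

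Against the input, both probe sets left miR-181a-5p lower, 3.36-fold (1.998 to 6.17) in EVEN and 4.83-fold (3.56 to 6.73) in ODD, with 1422 input reads behind each ratio. On the log2 scale it lay 0.64 below the median of all tested miRNAs in EVEN but 0.06 below it in ODD, where its fold was that of a typical miRNA. miR-181b-5p had log2 ratios to the input of -0.10 in EVEN and -0.42 in ODD, and was called in neither. That of ODD turned to 0.26 under TMM scaling, 0.74 under median-of-ratios scaling and 0.32 without the 10 most abundant miRNAs, and that of EVEN to 0.03 with median-of-ratios size factors and 0.09 with 5 added to each count. miR-181c-5p was at least 2.17-fold lower in EVEN at the floor of 3 reads, with an exact interval that begins at 1.75-fold, and 28.1-fold lower in ODD (4.99 to 1116). miR-181d-5p was 6.03-fold lower in EVEN (1.07 to 239, from 1 read) and 2.16-fold lower in ODD (1.21 to 4.27), and the ODD call turned to a log2 ratio of 0.11 with median-of-ratios size factors. miR-181c-3p was 6.26-fold lower in EVEN (1.11 to 248) and 26.98-fold lower in ODD (4.78 to 1071), each from 1 read. miR-181a-2-3p had a log2 ratio of 0.18 in EVEN, which TMM factors turned to -0.16, and was 2.31-fold lower in ODD (1.83 to 2.96). By library totals its ODD log2 ratio of -1.20 lay above the median of all tested miRNAs, -2.19. That call was lost under TMM scaling (-0.52), under median-of-ratios scaling (-0.03) and without the 10 most abundant miRNAs (-0.46).

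Of 6 members tested against the input, 4 were lower in EVEN and 5 in ODD, where 52.2% and 68.6% of all tested miRNAs were called lower. All 4 called in EVEN, and miR-181c-5p, miR-181d-5p and miR-181c-3p among those called in ODD, passed the minimum only through the deeper input library, and with 5 added to each count the EVEN count was 1. No member was called higher, where 18.3% of all tested miRNAs were higher in EVEN and 13.0% in ODD. EVEN and ODD share the LacZ and input libraries as references, so their ratios are not independent.

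Ratios between members of 1 library do not depend on how libraries are scaled, and they show the make-up of the family directly. miR-181b-5p outnumbered miR-181a-5p in both circHIPK3 pull-downs and not in LacZ or the input. It had 2.29 reads per miR-181a-5p read in EVEN (95% exact interval 1.19 to 4.64) and 2.64 in ODD (1.84 to 3.86), against 0.827 in LacZ (0.684 to 0.999) and 0.737 in the input (0.680 to 0.799). The ratio in EVEN was 2.77 times that in LacZ (1.39 to 5.76), and the ratio in ODD 3.20 times that in LacZ (2.11 to 4.89). LacZ and the input differed by 1.12 times, with an interval that includes 1 (0.912 to 1.38), and EVEN and ODD by 0.865 times (0.401 to 1.94).

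As a share of the family's 5p reads, miR-181b-5p took 68.1% of 47 reads in EVEN (52.9 to 80.9), 66.9% of 166 in ODD (59.2 to 73.97), 41.8% of 491 in LacZ (37.3 to 46.3) and 36.8% of 2849 in the input (35.0 to 38.6). miR-181a-5p took 29.8% in EVEN (17.3 to 44.9), 25.3% in ODD (18.9 to 32.6), 50.5% in LacZ and 49.9% in the input. miR-181c-5p took 0 of 47 reads in EVEN, with an exact interval up to 7.55%, and 0.602% in ODD (0.0153 to 3.31). Its share was 4.28% in LacZ and 6.91% in the input, and the EVEN interval includes both. miR-181d-5p took 2.13% in EVEN from 1 read and 7.23% in ODD (3.79 to 12.3), while its share was 3.46% in LacZ and 6.39% in the input.

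**Figure D3:**
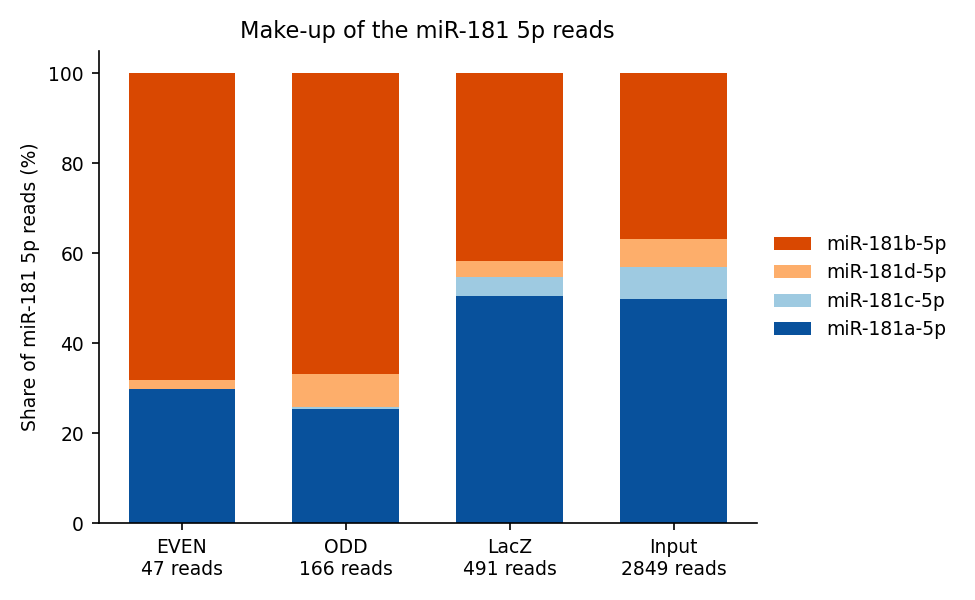
Share of the miR-181 5p reads taken by each 5p strand in the EVEN, ODD, LacZ and input libraries, in percent, with the number of reads under each bar. miR-181b-5p takes 68.1% and 66.9% in EVEN and ODD, against 41.8% in LacZ and 36.8% in the input.

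The 5p strands can also be counted as the pairs that share bases 9 and 10. They are shown again with those bases in capitals, because the counts that follow use them.
miR-181a-5p: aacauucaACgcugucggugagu
miR-181c-5p: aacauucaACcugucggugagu
miR-181b-5p: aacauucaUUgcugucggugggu
miR-181d-5p: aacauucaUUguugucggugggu
The strands with UU, miR-181b-5p and miR-181d-5p, had 33 reads in EVEN, 123 in ODD, 222 in LacZ and 1230 in the input. Those with AC, miR-181a-5p and miR-181c-5p, had 14 reads in EVEN, 43 in ODD, 269 in LacZ and 1619 in the input. The ratio of UU to AC strands was 2.36 in EVEN (1.23 to 4.77) and 2.86 in ODD (2.01 to 4.15), against 0.825 in LacZ (0.688 to 0.989) and 0.760 in the input (0.705 to 0.819). Within the chromosome 19 pair alone, ODD held 12 miR-181d-5p reads and 1 miR-181c-5p read, LacZ 17 miR-181d-5p and 21 miR-181c-5p reads, and the input 182 miR-181d-5p and 197 miR-181c-5p reads. The ODD ratio was 14.8 times the LacZ ratio, with a wide interval (1.77 to 663). This grouping was chosen after the counts were seen. The base at position 21 of miR-181a-5p separates the same pairs once the shorter miR-181c-5p is aligned to it. In EVEN 32 of the 33 UU reads were miR-181b-5p and all 14 AC reads were miR-181a-5p, so the pairs restate the ratio of those strands. The share of miR-181d-5p was not larger in EVEN, and its ODD interval includes its input share. Whether read assignment, capture or the RNA bound makes the difference was not tested.

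A related turn was seen for miR-181a-2-3p against miR-181a-5p. It uses the same miR-181a-5p reads as the ratio of miR-181b-5p to miR-181a-5p, so these ratios are not independent. miR-181a-5p can also come from MIR181A1, so this does not compare the strands of a single hairpin. miR-181a-2-3p had 3.21 reads per miR-181a-5p read in EVEN (1.73 to 6.34) and 1.79 in ODD (1.21 to 2.67), against 0.891 in LacZ (0.740 to 1.07) and 0.855 in the input (0.792 to 0.924). The 3p strand thus outnumbered the usual guide in both circHIPK3 pull-downs and was close to it in LacZ. Against miR-181b-5p, miR-181a-2-3p stood at 1.41 in EVEN (0.874 to 2.29) and 0.676 in ODD (0.497 to 0.914), with 1.08 in LacZ (0.887 to 1.31) and 1.16 in the input (1.07 to 1.26). For miR-181c the strands were nearly even, with 21 reads of each in LacZ and 189 of miR-181c-3p beside 197 of miR-181c-5p in the input, and the counts of 0 and 1 in EVEN and ODD give no usable ratio.

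The EVEN and ODD sets target the same exon, and between them only miR-181a-2-3p was called. It had 455 CPM in EVEN and 176 CPM in ODD, 2.59-fold higher in EVEN (1.75 to 3.79). That was the only call among 3 members tested, where 37.9% of 203 tested miRNAs were called higher in EVEN and 18.2% lower, and it was lost under all 3 other scalings. Relative to miR-181b-5p, which needs no scaling, the ratio of miR-181a-2-3p was 2.08 times as high in EVEN as in ODD (1.17 to 3.71). miR-181a-5p had 141 CPM in EVEN and 98.5 CPM in ODD, and miR-181b-5p had 323 CPM in EVEN and 260.3 CPM in ODD. Those log2 ratios of 0.56 and 0.33 turned to -0.47 and -0.69 with TMM factors, so no direction can be given for them.

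Other families with more than 1 guide strand serve as a yardstick, without a comparison of how alike their sequences are. The 2 miR-26 5p strands, known for restraining growth, were together 3.23-fold lower in EVEN than in LacZ (3.00 to 3.48) and 5.38-fold lower in ODD (5.12 to 5.65). The 5 miR-30 5p strands, known for keeping epithelial and heart cells differentiated, were 5.54-fold lower in EVEN (4.88 to 6.32) and 7.91-fold lower in ODD (7.33 to 8.55). On the same scale the miR-181 5p strands had the smaller folds of 2.43 and 2.97, without a test of that difference. Their make-up shifted too. miR-30c-5p per miR-30e-5p, the 2 most abundant miR-30 guides, was 3.45 times as high in EVEN as in LacZ (2.51 to 4.70) and 3.19 times in ODD (2.62 to 3.86). Against LacZ, a turn of the size seen between miR-181b-5p and miR-181a-5p thus also occurred in another family. Against the input, the miR-30 ratio was 1.72 times as high in EVEN (1.27 to 2.31) and 1.59 times in ODD (1.33 to 1.88). That of miR-181b-5p to miR-181a-5p was 3.10 times as high in EVEN (1.60 to 6.32) and 3.59 times in ODD (2.47 to 5.29). The 2 EVEN intervals overlap. miR-26b-5p per miR-26a-5p moved the other way, to 0.622 times its LacZ value in EVEN (0.531 to 0.727) and 0.7297 times in ODD (0.661 to 0.806). Both those ratios also differed between LacZ and the input, at 0.498 times (0.455 to 0.543) for miR-30 and 0.528 times (0.507 to 0.55) for miR-26, whereas that of miR-181b-5p to miR-181a-5p differed by 1.12 times.

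**Figure D4:**
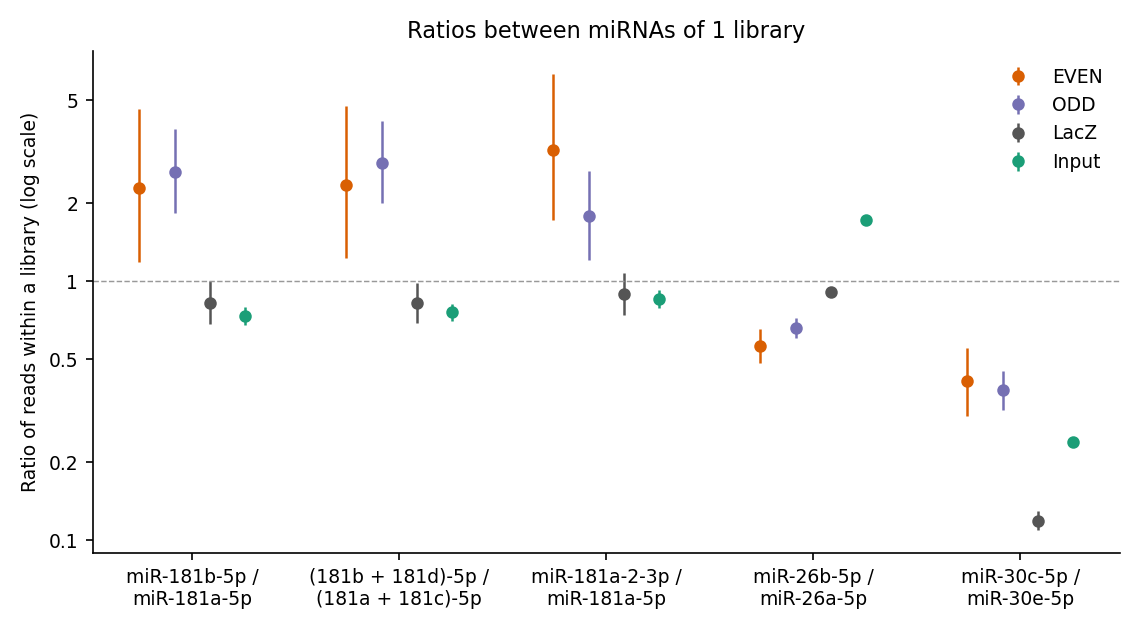
Ratio of the reads of 1 miRNA or pair to another within each library, on a log axis, with 95% exact intervals, for EVEN, ODD, LacZ and input. miR-181b-5p per miR-181a-5p lies above 1 in EVEN (2.29) and ODD (2.64) and below 1 in LacZ (0.827) and the input (0.737), while the miR-26 and miR-30 ratios also part LacZ from the input.

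MIR181C and MIR181D have miR-23a, miR-27a and miR-24 as near neighbours on the opposite strand of chromosome 19. miR-24-3p was called higher in ODD, with 11813 reads in ODD and 4367 in LacZ, and miR-27a-3p was called lower, with 103 reads in ODD and 819 in LacZ. miR-23a-3p had 327 reads in ODD and 904 in LacZ and was called lower. In EVEN, these neighbours had 530 reads for miR-24-3p, 28 for miR-27a-3p and 165 for miR-23a-3p. Of the 3 only miR-27a-3p was called, as lower, while miR-24-3p fell just short at a log2 ratio to LacZ of -0.94. Of all tested miRNAs, 13.0% were called higher and 70.3% lower in ODD against LacZ. For EVEN against LacZ these shares were 9.69% and 51.2%.

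Likeness of profile was measured as the root mean square difference of the 3 log2 ratios of EVEN, ODD and LacZ to the input, over 243 other miRNAs with at least 100 input and 20 LacZ reads. The 5 nearest to miR-181a-5p were miR-339-3p (0.29), miR-887-3p (0.32), miR-3065-5p (0.36), miR-128-3p (0.38) and miR-500a-3p (0.38). miR-128-3p, a miRNA abundant in brain and muscle, had log2 ratios of -1.41 in EVEN, -2.51 in ODD and -0.24 in LacZ, beside -1.70, -2.26 and 0.30 for miR-181a-5p. No member that met these minimums was near it: miR-181c-3p ranked 82, miR-181a-2-3p 91, miR-181b-5p 105 and miR-181c-5p 127 of 243. miR-181d-5p, with 17 LacZ reads, and miR-181a-3p, with 2, did not meet them and were not ranked. The log2 ratios of miR-181d-5p were -2.01 in EVEN, -1.06 in ODD and -0.57 in LacZ. Seen from miR-181b-5p, miR-181a-2-3p ranked 10, at 0.48, and miR-181a-5p 98, at 1.41. The values rest on 3 ratios that share 1 input library, and several rest on few reads. miR-3065-5p had 1 read in EVEN and 5 in ODD, and miR-339-3p had 9 in EVEN. The ranks of miR-181c-5p and miR-181c-3p come from counts of 0 and 1 in EVEN and ODD.

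Exon 2 of HIPK3, on the plus strand of chromosome 11 at 33286413 to 33287511 (1099 nt, GENCODE release 29), was searched for the letters that pair with the members' seeds, both as a line and as a closed circle. TGAATGT, which pairs with bases 2 to 8 of all the 5p strands, occurred 0 times on the transcript strand and 0 times on the other, and so did GAATGTA, which pairs with bases 2 to 7 followed by an A. Of 5654 other exons of protein-coding genes between 1000 and 1200 nt long, with overlapping exons counted apart, 11.1% held TGAATGT and 6.40% held GAATGTA. For miR-181a-2-3p, TCAGTGG was not found in exon 2 either, and 11.1% of the other exons held it. The matches to the seeds of miR-181a-3p, which is TCGATGG, and of miR-181c-3p, which is CGATGGT, had 0 occurrences too, with 1.57% and 1.27% of the other exons holding them. The forms that pair with bases 2 to 7 and add an A were likewise at 0. For miR-181a-2-3p this is CAGTGGA, held by 12.0% of the other exons. For miR-181a-3p the form is CGATGGA, which was in 1.52% of them. For miR-181c-3p it is GATGGTA, which was in 4.03% of them. Some of these motifs overlap one another in part. The absence of these letters says nothing of other ways to bind, and linear HIPK3 RNA, which also holds exon 2, cannot be told apart from the circle in a pull-down with these probes.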

How the data were processed

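Small RNA was sequenced from 4 libraries (EVEN, ODD, LacZ, input), made with the QIAseq miRNA kit and read single-end on a NovaSeq, per the labels' protocols. Raw counts for each mature miRNA, and CPM that equal each count over its library total, were deposited by the authors. The submitters' processing notes name GRCh38. Aligner, annotation, use of molecular identifiers and assignment of multiply matching reads: not given in the sources used here. PCR copies, if counted, make intervals too narrow.

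With 1 library per group there is no test between groups. Ratios of shares have 95% exact conditional Clopper-Pearson intervals; log2 ratios have 0.5 added to each count. A miRNA with at least 20 reads in 1 of the 2 libraries was tested and called at 2-fold. The deeper library of a comparison meets this minimum more easily, so medians and shares over tested miRNAs depend on it. Shares say nothing of absolute amounts. Other settings tried were TMM scaling with edgeR 4.0.16, median-of-ratios scaling with DESeq2 1.42.0, totals that leave out the 10 most abundant miRNAs, 5 added to counts, deposited CPM with 1 added, minimums of 1 and 100 reads, a 4-fold call and a 2-fold call whose counting interval excludes 1. Python 3.11.15, scipy 1.17.1 and R 4.3.3 were used. Members, lists and tests were chosen with earlier results of these data known. The text names every member, the comparison lists and the 5 miRNAs with the nearest profile.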

Additional observations from a re-analysis of the deposited data

How the results depend on the processing

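No paired analysis was possible because each group has 1 library. By library totals the log2 ratio of the summed miR-181 5p strands moved beyond its counting interval in ODD over LacZ, from -1.57 to -0.28 under TMM, -0.12 under median-of-ratios scaling and -0.90 without the 10 most abundant miRNAs. In ODD over the input it moved from -1.29 to -0.60, -0.12 and -0.55 under the same settings. In LacZ over the input TMM gave -0.33 and median-of-ratios scaling -0.00432, and in EVEN over ODD the 3 settings gave -0.73, -0.74 and -0.36 in place of 0.30. By construction these settings move all miRNAs of a library together. In EVEN over LacZ and EVEN over the input the summed value stayed inside its interval under every setting run.

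The count of members called moved as follows. In EVEN over LacZ 3 became 1 with 5 added to each count, with a minimum of 100 reads or at 4-fold, 2 when the counting interval also had to exclude 1, and 4 at a minimum of 1 read. In EVEN over the input 4 became 1 with 5 added, 3 at 4-fold and 5 at a minimum of 1 read. That minimum counted 1 member as higher, miR-181a-3p, which had 0 reads in EVEN and 5 in the input. In ODD over LacZ 4 became 3 with each of the 3 scalings and at 4-fold, 2 at a minimum of 100 reads and 5 at a minimum of 1 read. In ODD over the input 5 became 3 with each of the 3 scalings and at 4-fold, and 4 with 5 added to each count. In LacZ over the input 0 became 1 with TMM factors and at a minimum of 1 read. In EVEN over ODD 1 became 0 with each scaling, at a minimum of 100 reads and at 4-fold, and 2 at a minimum of 1 read. Of single members, miR-181d-5p in ODD over the input turned from -1.06 to 0.11 under median-of-ratios scaling. Adding miR-181d-5p and miR-181c-5p to the ratio of miR-181b-5p to miR-181a-5p, a setting chosen after seeing the data, gave 2.86 times LacZ in EVEN and 3.47 times in ODD. The counts of 0 and 1 in EVEN are what its depth limits most.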
